A study of Mus musculus with 4 samples.

Results

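Matrix metalloproteinases and their tissue inhibitors were examined in bone marrow-derived macrophages, as 10 genes chosen by name: Mmp2, Mmp8, Mmp9, Mmp12, Mmp13, Mmp14, Mmp19, Timp1, Timp2 and Timp3. All 10 were found among the 54532 genes of the deposited count table, each under 1 identifier. Matrix metalloproteinases are zinc-dependent endopeptidases that cut collagens, elastin and other matrix proteins, as well as cytokines and cell-surface proteins. Most are made as inactive precursors that are activated by removal of a propeptide, and the TIMP proteins bind and block the active site. In macrophages they are known for roles in migration through tissue and in matrix turnover during inflammation.

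The 4 libraries of polyadenylated RNA came from macrophages that C57BL/6 marrow gave in 6 days of culture, at a mouse age of 6 to 8 weeks. The medium held 20% L929-conditioned medium, a source of macrophage colony-stimulating factor. Both Fbxw7 alleles were floxed (FBXW7f/f) in all the mice, controls included. The genotype of each library is given here as the titles have it, and the genotype tags conflict with the titles. By title, the library titled WT had these alleles alone and was untreated. The library titled WT with LPS came from such cells after 3 h of lipopolysaccharide (LPS), the bacterial ligand of TLR4. By title, the libraries titled KO, untreated and after 3 h of LPS, were from mice that also carried LysM-cre. LysM-cre is a Cre recombinase gene at the lysozyme locus Lyz2, active in myeloid cells, which deletes the floxed Fbxw7, a ubiquitin ligase subunit. Each group was 1 library, so no ratio of 2 libraries can be set against replicate spread, and none carries a p-value. The sources used here do not say whether a library pooled animals, nor the LPS dose. Total counts ranged from 17610372 to 23835940.

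The labels conflict with each other, and levels at the lysozyme locus did not follow the titles. Genotype tags placed the cre genotype on both LPS libraries and on neither untreated one, against the titles, and groups here follow the titles. If the tags hold instead, genotype coincides with LPS, and no LPS effect given here can be told apart from a genotype effect. Fbxw7, in CPM (read counts scaled to library size, after TMM scaling), had 17.9 untreated and 9.90 after LPS under the title WT, against 17.2 and 11.7 under the title KO. Gene-level counts cannot show a deleted exon. Lyz1, a neighbour of the cre locus, was high in the KO-titled untreated library (32.9 CPM) and the WT-titled LPS library (33.1 CPM), and low in the WT-titled untreated library (2.86 CPM) and the KO-titled LPS library (2.63 CPM). Genes called between titles at both treatments mostly went in opposite directions: 368 of 374. Where the LPS ratio of a gene within titles is printed, the ratio against the untreated library of the other title is therefore added if it ends a call or turns a direction. For genes printed only by title ratio or additive effect this was not done. Lyz2, into which LysM-cre is inserted, was 15253 CPM in the WT-titled untreated and 18238 CPM in the KO-titled LPS library, and 8711 and 9917 CPM in the KO-titled untreated and WT-titled LPS libraries. All 7 macrophage markers examined, among them Csf1r and Adgre1, had counts in every library.

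After LPS, the collagenase gene Mmp13, the membrane-type gene Mmp14 and the inhibitor gene Timp1 were higher in both titles. Mmp8, Mmp12 and Timp2 instead were high in the KO-titled untreated library and the WT-titled LPS library, while Mmp19 was lower after LPS in titles WT, and Mmp2, Mmp9 and Timp3 had low levels. A gene was called higher or lower between 2 libraries when its log2 CPM ratio was 2-fold or more, its mean was at least 1 CPM and its exact 95% binomial counting interval excluded no change. Of the 10 genes, 9 reached that mean, and Timp3 did not. In the libraries titled WT, 6 of 9 were higher after LPS, where 15.4% of the 12326 genes measured were higher, and 1 was lower, against 15.0% (30.4% in either direction). In the libraries titled KO, 3 of 9 were higher after LPS, against 14.6% of genes, and 1 was lower, against 17.8% (32.4% in either direction). The median log2 ratio of the 9 was 1.52 in titles WT and −0.30 in titles KO, beside −0.01 and −0.07 over all measured genes. Against the untreated library of the other title, Mmp12, Mmp13, Mmp14 and Timp1 were called higher in both LPS libraries and 0 of 9 lower. Of the 12326 genes, 3520 and 3678 were called in that setting in either direction, for the WT-titled and KO-titled LPS libraries. Intervals given with folds below cover counting error only. In bulk RNA, fewer cells of a type and less RNA per cell cannot be told apart.

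**Figure D1:**
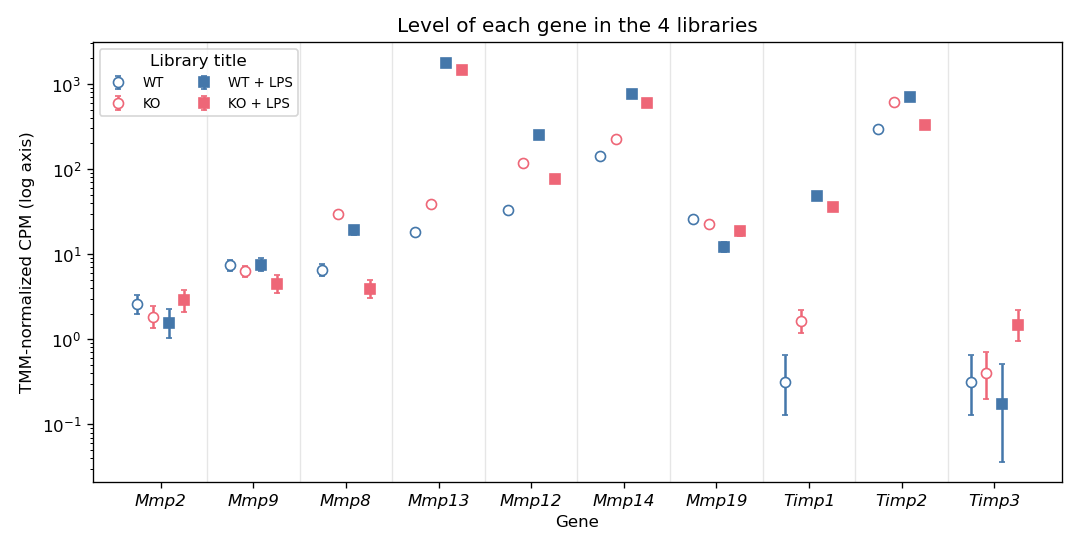
TMM-normalized level (CPM, log axis) of each of the 10 genes in each library, by title, with open circles for untreated and filled squares for LPS libraries, and bars for 95% Poisson counting intervals. Mmp13 reached 1769.6 and 1452.5 CPM after LPS from 18.1 and 39.0 CPM untreated, while Timp3 stayed between 0.175 and 1.47 CPM.

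Mmp13 (ENSMUSG00000050578, chromosome 9, 7272514 to 7283331, plus strand of mm10), the collagenase of mouse connective tissue and cartilage, had the highest FPKM of the 10 genes after LPS, 665 and 558 in titles WT and KO. Counts were 399 and 1079 in the WT-titled and KO-titled untreated libraries, and 30391 and 23739 after LPS in the same order. Both LPS libraries lay far above both untreated ones. The level was 97.8-fold (88.6 to 108) higher after LPS in titles WT and 37.2-fold (35.0 to 39.6) higher in titles KO. By the authors' FPKM, a level per gene length, Mmp13 ranked 5099th and 2878th among all genes in the WT-titled and KO-titled untreated libraries. After LPS it ranked 83rd and 107th. Across all 4 libraries, Mmp13 rose by 5.95 ± 0.52 log2 units (SE implied by the F test; adjusted p = 0.00636, edgeR's quasi-likelihood test of an additive genotype and treatment model, Benjamini-Hochberg over 13989 genes). In that model 3 of 9 tested metalloproteinase and inhibitor genes rose, against 9.35% of all genes, and 0 fell, against 5.14% (14.5% in either direction). The median effect was 0.20 log2 units, beside −0.05 over all genes tested.

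The 250 bases before the RefSeq start of Mmp13 are shown because Mmp13 showed the largest effect of the 3 genes that passed the test, with motif matches in capitals (GRCm38.p6, chr9:7272264-7272513, plus strand, 5′ to 3′).
Mmp13: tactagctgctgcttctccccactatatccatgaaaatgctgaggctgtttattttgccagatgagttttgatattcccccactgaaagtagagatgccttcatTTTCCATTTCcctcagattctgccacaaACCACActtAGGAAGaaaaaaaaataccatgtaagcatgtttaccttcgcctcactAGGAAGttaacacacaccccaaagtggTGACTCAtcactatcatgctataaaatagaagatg
The capitals mark, from the upstream end, an IRF-type match on the reverse strand, a RUNX match, a pair of ETS matches and an AP-1 match, TGACTCA, from base −35 to −29 of the start. The RefSeq table held 7 of the 10 genes, and their 8 promoter windows were searched on both strands for 7 motifs. AP-1 (TGANTCA) was found in 2 of the 8 windows and in 6.75% of 32851 promoter windows of the same length, and ETS (AGGAAG) in 6 of 8 and 29.5%. RUNX (ACCACA) was in 2 of 8 and 14.0%, and the IRF-type motif in 1 of 8 and 2.98%. None of the 8 windows held the letters searched for NF-kB (17.6% of all), a cyclic AMP response element (TGACGTCA, 1.55%) or an E-box (CACGTG, 6.02%). These are matches of letters and not measured binding.

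Timp1 (ENSMUSG00000001131, chromosome X, 20870166 to 20874735, plus strand), the secreted inhibitor that is inducible in many cells, followed the same order of libraries as Mmp13. It had 7 counts (0.317 CPM) in the WT-titled untreated library, 45 (1.63 CPM) in that titled KO, 817 (47.6 CPM) in the WT-titled LPS library and 589 (36.0 CPM) in the KO-titled LPS library. Counting intervals of the 4 levels did not overlap. Timp1 was 149.8-fold (72.4 to 374) higher after LPS in titles WT, a ratio that rests on 7 untreated counts, and 22.2-fold (16.3 to 30.7) higher in titles KO. It rose by 5.60 ± 0.71 log2 units over all libraries (edgeR, adjusted p = 0.0133). Timp1 lies on the opposite strand within the span of Syn1 and shares 0 exonic bases with it, and Syn1 had 609, 1461, 683 and 364 counts in the order WT-titled untreated, KO-titled untreated, WT-titled LPS and KO-titled LPS. No source used here gives the strand setting of the counting.

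Mmp14 (ENSMUSG00000000957, chromosome 14, 54431612 to 54445364, plus strand) encodes a membrane-anchored metalloproteinase that cuts collagen at the cell surface and activates the precursor of MMP2. Its levels were 142 and 226 CPM in the WT-titled and KO-titled untreated libraries, and 764 and 591 CPM after LPS. Both LPS libraries were above both untreated ones. The folds were 5.37 (5.16 to 5.58) in titles WT and 2.61 (2.53 to 2.70) in titles KO. Mmp14 rose by 1.94 ± 0.35 log2 units in all libraries together (edgeR, adjusted p = 0.0298). Scaled to library totals in place of TMM, the log2 ratio in titles KO was 0.92, under 2-fold.

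The promoter windows of Timp1 and Mmp14 are shown with that of Mmp13 because these 3 genes were higher after LPS in both titles (GRCm38.p6, plus strand, chrX:20869916-20870165 and chr14:54431348-54431597, motif matches in capitals).
Timp1: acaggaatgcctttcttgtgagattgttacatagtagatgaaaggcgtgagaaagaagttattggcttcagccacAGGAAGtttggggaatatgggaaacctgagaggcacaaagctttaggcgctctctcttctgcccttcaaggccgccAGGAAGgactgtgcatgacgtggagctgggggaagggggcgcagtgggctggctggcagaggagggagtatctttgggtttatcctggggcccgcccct
Mmp14: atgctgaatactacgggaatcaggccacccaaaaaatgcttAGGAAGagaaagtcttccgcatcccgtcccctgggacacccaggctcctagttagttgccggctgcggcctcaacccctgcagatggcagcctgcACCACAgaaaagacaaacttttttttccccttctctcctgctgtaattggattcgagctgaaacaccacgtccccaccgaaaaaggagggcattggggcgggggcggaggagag
The capitals in the Timp1 window are ETS matches, at bases −175 and −99, and those in the Mmp14 window an ETS match at −209 and a RUNX match at −114. An ETS match was the one motif of the 7 that all 3 windows held, and windows of Mmp8, Mmp12 and Timp3 held it too.

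Mmp12 (ENSMUSG00000049723, chromosome 9, 7344381 to 7369499, plus strand), the macrophage elastase, was 33.2 CPM in the WT-titled untreated library and 117.8 CPM in that titled KO. After LPS the title WT had 251.8 CPM and the title KO 75.5 CPM. No 2 of these counting intervals overlapped, and the KO-titled LPS library lay below the untreated one. Mmp12 was 7.58-fold (7.01 to 8.21) higher after LPS in titles WT but 1.56-fold (1.46 to 1.67) lower in titles KO, which is not a call. Against the untreated library of the other title, the log2 ratio was 1.10 for the WT-titled LPS library and 1.18 for that titled KO, so the direction in titles KO turned. Library totals made it −1.11 within titles KO, a call. Across all 4 libraries the effect was 1.17 ± 0.95 log2 units (edgeR, adjusted p = 0.429). Mmp12 shares 157 exonic bases with Mmp1b on the other strand, which had 2 counts in the WT-titled LPS library and 0 in the others.

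Mmp8 (ENSMUSG00000005800, chromosome 9, 7558456 to 7568485, plus strand) encodes the collagenase that neutrophils store in granules. Its counts were 145 (6.58 CPM) and 812 (29.4 CPM) in the WT-titled and KO-titled untreated libraries, and 326 (19.0 CPM) and 64 (3.92 CPM) after LPS. Highest was the KO-titled untreated library, and lowest the KO-titled LPS library. Mmp8 was 2.89-fold (2.37 to 3.54) higher after LPS in titles WT and 7.50-fold (5.81 to 9.83) lower in titles KO. Against the untreated library of the other title, the log2 ratios were −0.63 and −0.73 in the same order, so the direction in titles WT turned and the call in titles KO ended. With library totals the ratio in titles WT was 0.91, under 2-fold. Neutrophil markers were near absent: the summed level of 9 markers was 3.30 to 11.3 CPM per library, S100a8 was the highest of them in each, and Ly6g was at 0 counts in 3 of 4 libraries. Of the monocyte markers, Ccr2 was 4.94 and 23.9 CPM in the WT-titled and KO-titled untreated libraries, and 11.4 and 1.10 CPM after LPS. For Ly6c2 the levels in that order were 0.590, 5.60, 3.61 and 0.428 CPM. Both markers thus ranked the KO-titled untreated library first and the WT-titled LPS library second, as Mmp8 did, and their part in the result was not tested.

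Windows of Mmp12 and Mmp8 are shown, as genes among those with opposite LPS directions in the 2 titles (GRCm38.p6, plus strand, chr9:7347124-7347373 for the downstream of 2 Mmp12 starts and chr9:7558179-7558428 for Mmp8, motif matches in capitals).
Mmp12: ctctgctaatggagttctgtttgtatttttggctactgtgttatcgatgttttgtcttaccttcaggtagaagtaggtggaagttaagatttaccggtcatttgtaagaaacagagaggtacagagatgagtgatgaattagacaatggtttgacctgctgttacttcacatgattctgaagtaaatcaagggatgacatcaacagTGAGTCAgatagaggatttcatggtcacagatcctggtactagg
Mmp8: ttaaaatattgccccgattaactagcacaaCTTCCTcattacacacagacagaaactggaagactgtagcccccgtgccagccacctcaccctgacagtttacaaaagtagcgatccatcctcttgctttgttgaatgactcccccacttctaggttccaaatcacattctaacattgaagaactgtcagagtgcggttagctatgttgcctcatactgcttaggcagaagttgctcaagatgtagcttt
The capitals in the Mmp12 window are an AP-1 match, TGAGTCA, from base −44 to −38, and those in the Mmp8 window an ETS match on the reverse strand at −220 to −215. The window of the upstream Mmp12 start, not shown, held the ETS match of that gene, at −87 to −82. Timp2 also gave opposite LPS directions, and its window, not shown, held no match. Mmp13, Mmp12 and Mmp8 lie in 1 chromosome 9 cluster of 10 metalloproteinase genes, together with Mmp1b, Mmp3, Mmp1a, Mmp10, Mmp27, Mmp20 and Mmp7.

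Timp2 (ENSMUSG00000017466, chromosome 11, 118301069 to 118355740, minus strand), a broadly expressed inhibitor that also takes part with MMP14 in activating MMP2, was the most abundant inhibitor transcript per length in every library. It was 297 CPM in the WT-titled untreated library and 615 CPM in that titled KO, and after LPS 711 and 325 CPM in the same order. The KO-titled untreated library and the WT-titled LPS library were thus about equally high, and the other two lower. Timp2 was 2.39-fold (2.32 to 2.47) higher after LPS in titles WT and 1.90-fold (1.84 to 1.96) lower in titles KO, the latter under 2-fold. Against the untreated library of the other title, the log2 ratios were 0.21 and 0.13, neither a call. With library totals in place of TMM they were 0.65 and −1.39 within titles, so the call in titles WT ended and one in titles KO appeared. Over all libraries the effect was 0.20 ± 0.58 log2 units (edgeR, adjusted p = 0.83), and −0.37 with library totals.

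The gelatinase genes were low. Mmp9 (ENSMUSG00000017737, chromosome 2, 164940780 to 164955850, plus strand), known from neutrophils, osteoclasts and activated macrophages, was 7.39 and 6.26 CPM in the WT-titled and KO-titled untreated libraries, and 7.51 and 4.47 CPM after LPS. Only the KO-titled LPS library stood lower, and its interval (3.50 to 5.62 CPM) still overlapped that of the KO-titled untreated library (5.36 to 7.26 CPM). Mmp9 was called in no comparison, with LPS ratios of 1.02 (0.800 to 1.29) in titles WT and 0.714 (0.536 to 0.944) in titles KO and an effect over all libraries of −0.19 ± 0.36 log2 units (edgeR, adjusted p = 0.735). Summed levels of 6 osteoclast markers were 62.5 to 119 CPM per library, and Acp5 or Atp6v0d2 was the highest. Of these, Calcr was at 0 counts in both untreated libraries, and Ctsk was 3.36, 34.3, 32.5 and 3.92 CPM in the order WT-titled untreated, KO-titled untreated, WT-titled LPS and KO-titled LPS. Their part in the results was not tested. Mmp2 (ENSMUSG00000031740, chromosome 8, 92827291 to 92853420, plus strand), more typical of fibroblasts, had 57 and 51 counts untreated and 27 and 47 after LPS, which is 1.57 to 2.88 CPM, and an effect over all libraries of 0.01 ± 0.57 log2 units (edgeR, adjusted p = 0.993). Its log2 ratio in titles WT was −0.68, not a call, and −1.27 with library totals, a call. The summed level of 7 fibroblast markers was 1.86 to 5.87 CPM per library.

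Mmp19 (ENSMUSG00000025355, chromosome 10, 128790910 to 128800824, plus strand), a metalloproteinase of basement membrane substrates, was the one gene of the 10 called lower after LPS in titles WT. Its levels were 26.1 and 22.9 CPM in the WT-titled and KO-titled untreated libraries, and 12.1 and 18.5 CPM after LPS. Both LPS libraries were lower than both untreated ones. Mmp19 was 2.16-fold (1.84 to 2.54) lower in titles WT and 1.23-fold (1.07 to 1.42) lower in titles KO, and the effect over all libraries was −0.67 ± 0.31 log2 units (edgeR, adjusted p = 0.205). It passed with library totals, at −1.24. The call in titles WT ended against the KO-titled untreated library, where the log2 ratio was −0.91. Mmp19 shares 789 exonic bases with Tmem198b on the other strand, which had 117 and 135 counts untreated and 63 and 70 after LPS, so reads of the pair may not be told apart. Timp3 (ENSMUSG00000020044, chromosome 10, 86300372 to 86349506, plus strand), the inhibitor that binds matrix, had 7, 11, 3 and 24 counts in the order WT-titled untreated, KO-titled untreated, WT-titled LPS and KO-titled LPS. It shares 1733 exonic bases with Syn3, which had 0 to 6 counts. Timp3 was 8.41-fold (2.55 to 43.6) higher in the KO-titled than in the WT-titled LPS library, on 24 against 3 counts, and was too low for the additive test.

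**Figure D2:**
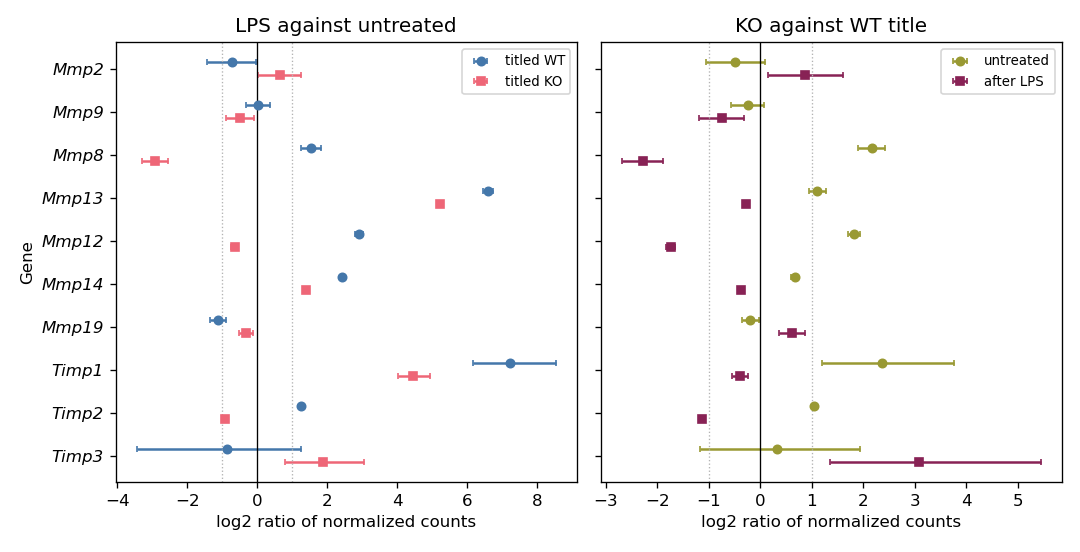
log2 ratios of normalized counts for the 10 genes, with 95% binomial counting intervals, for LPS against untreated (left, by title) and for the KO against the WT title (right, by treatment). Dotted lines mark 2-fold. Mmp13, Mmp14 and Timp1 lie right of 2-fold in both titles after LPS, and Mmp8, Mmp12 and Timp2 lie beyond 2-fold on opposite sides in the title comparison.

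If the titles hold, the comparison of titles asks how loss of Fbxw7 in myeloid cells alters macrophages before and after LPS. In that comparison Mmp8, Mmp12 and Timp2 were called in opposite directions at the 2 treatments. Untreated, 5 of 9 were higher in the library titled KO, where 3.16% of measured genes were, and 0 were lower, against 2.03% (5.18% in either direction). The median log2 ratio of the 9 was 1.05, beside 0.03 over all measured genes. Mmp8 was 4.46-fold (3.74 to 5.36) higher, Mmp12 3.55-fold (3.27 to 3.85), Mmp13 2.16-fold (1.92 to 2.42), Timp1 5.12-fold (2.29 to 13.5) and Timp2 2.07-fold (2.01 to 2.13). Mmp14 was 1.59-fold (1.52 to 1.66) higher, which is not a call. With library totals, Mmp13 and Timp2 fell just under 2-fold, leaving 3 of 9. After LPS, 0 of 9 were higher in the library titled KO, against 3.42% of measured genes, and 3 were lower, against 4.81% (8.23% in either direction), with a median of −0.40 beside −0.02. Mmp8 was 4.85-fold (3.70 to 6.44) lower, Mmp12 3.33-fold (3.13 to 3.55) and Timp2 2.19-fold (2.12 to 2.26). Mmp13, Mmp14 and Timp1 were 1.22-fold (1.20 to 1.24), 1.29-fold (1.26 to 1.33) and 1.32-fold (1.19 to 1.47) lower, none a call.

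Over both treatments, the sign of the title ratio was opposite for 8 of 9 genes (88.9%), Mmp9 being the exception, as it was for 69.2% of all measured genes. Mmp8, Mmp12 and Timp2, 3 of 9 (33.3%), were called in opposite directions at both treatments, which 2.99% of measured genes were. In the authors' deposited table, the log2 folds of Mmp8 between titles were 2.16 untreated (adjusted p = 0.000446) and −2.25 after LPS (adjusted p = 0.000369), and those of Mmp12 were 1.83 (adjusted p = 0.00444) and −1.72 (adjusted p = 0.00638). Between titles, the authors' deposited table gave Timp2 adjusted p-values of 0.419 untreated and 0.22 after LPS, and Timp3 a log2 fold of 3.04 after LPS (adjusted p = 0.0391). The test behind that table, on 1 library a group, is named in no source used here and has no replicate spread behind it. In the additive model, no genotype effect passed for these 9 genes or any other of 13989 by edgeR (0.0% of genes), with 39 genes at an unadjusted p under 0.05, and DESeq2 and limma-voom also called 0. That model cannot show title differences of opposite sign at the 2 treatments, which cancel in its genotype effect and widen its spread. For Lyz1 that effect was −0.03 ± 2.49 log2 units.

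**Figure D3:**
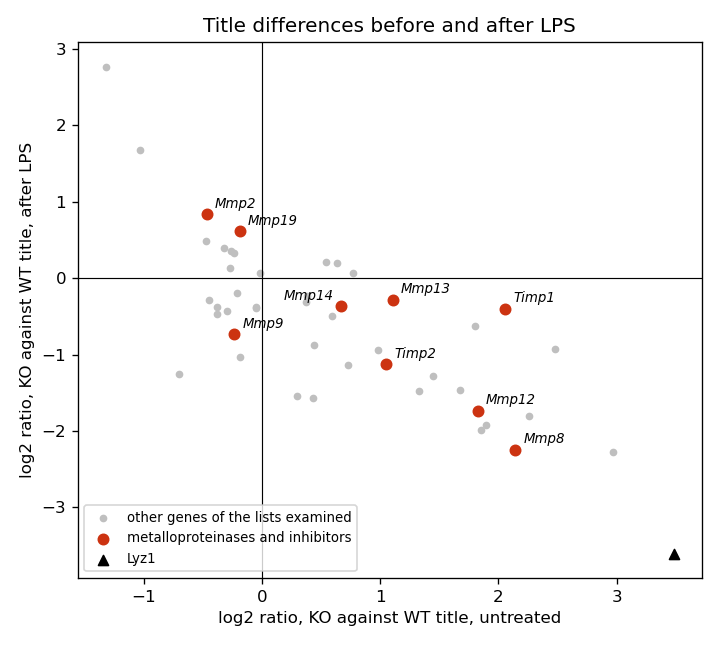
log2 CPM ratio of the KO to the WT title after LPS against that ratio untreated, for the 9 measured metalloproteinase and inhibitor genes (red), other measured genes of the lists examined (grey) and Lyz1 (triangle). Mmp8, Mmp12 and Timp2 lie in the lower right part with Lyz1, and Mmp9 alone of the red points has the same sign on both axes.

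Within titles, the LPS ratio differed between titles by at least 2-fold for 7 of 9 genes. The log2 ratio in titles KO minus that in titles WT was −4.42 (95% Poisson interval −4.88 to −3.96) for Mmp8, −3.56 (−3.71 to −3.42) for Mmp12 and −2.18 (−2.24 to −2.12) for Timp2. It was −2.67 (−3.80 to −1.55) for Timp1 and −1.39 (−1.56 to −1.22) for Mmp13, both of which were higher after LPS in each title. Mmp14 was near the 2-fold limit at −1.04 (−1.11 to −0.97), and passed under it with DESeq2 size factors (−0.98) or library totals (−0.89). Mmp2 differed by 1.35 (0.48 to 2.21) on few counts. In all, the signed difference was called negative for 6 of 9, against 10.4% of measured genes, and positive for 1, against 7.89% (18.3% in either direction). The median difference was −1.39, beside −0.06 over all measured genes. With each LPS library set against the untreated library of the other title, 1 of 9 was called, Timp1 at 1.87 (0.75 to 3.00), opposite to its sign within titles. That value rests on 7 Timp1 counts in the WT-titled untreated library. The number of all measured genes called in this setting is given below. The difference was then −0.11 (−0.58 to 0.35) for Mmp8, 0.09 (−0.06 to 0.24) for Mmp12 and −0.08 (−0.14 to −0.02) for Timp2. It was 0.82 (0.65 to 0.99) for Mmp13, 0.30 (0.22 to 0.37) for Mmp14 and 0.37 (−0.49 to 1.24) for Mmp2, none a call. No replicate spread bears on these differences.

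Per length, the mixture of transcripts shifted toward Mmp13 after LPS. The 7 metalloproteinase genes summed to 47.2 and 86.4 FPKM in the WT-titled and KO-titled untreated libraries, and to 842 and 680 FPKM after LPS. Mmp14 was the largest part untreated, at 49.5% and 42.3% of that sum, while Mmp13 held 14.0% and 16.3%. After LPS Mmp13 held 78.9% and 82.1%. The 3 inhibitor genes summed to 75.0 and 154 FPKM untreated and to 237 and 127 FPKM after LPS, and Timp2 was 99.5% and 98.8% of that sum untreated and 77.3% and 67.2% after LPS, with Timp1 at 22.7% and 32.7%. The ratio of the metalloproteinase sum to the inhibitor sum was 0.629 and 0.561 untreated and 3.55 and 5.33 after LPS. Without Mmp13 it was 0.541 and 0.470 untreated and 0.749 and 0.955 after LPS. These are ratios of transcripts and say nothing of protein or enzyme activity.

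**Figure D4:**
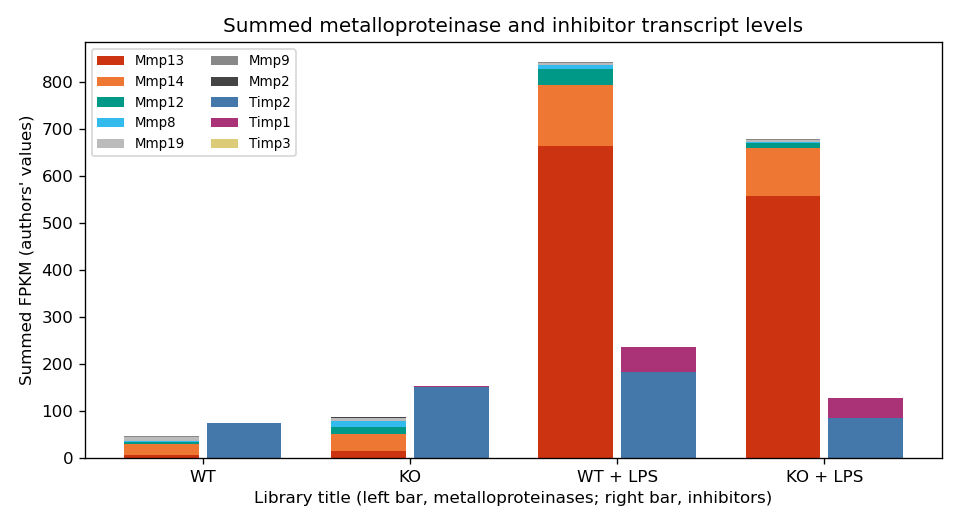
Summed FPKM (the authors' values, linear axis from 0) of the 7 metalloproteinase genes (left bar) and 3 inhibitor genes (right bar) in each library, split by gene. Mmp13 fills most of the metalloproteinase bar after LPS (78.9% and 82.1%), and Timp2 most of the inhibitor bar in each library.

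The other genes of the family were mostly silent. Of 17 further metalloproteinase and inhibitor genes, 5 had a mean of at least 1 CPM, and Mmp7, Mmp16 and Mmp20 had 0 counts in every library, where 3 counts would be 0.108 to 0.184 CPM. Mmp25, which encodes a membrane-anchored enzyme of leukocytes, had 11 and 10 counts in the WT-titled and KO-titled untreated libraries and 371 and 254 after LPS. It was 43.3-fold (23.9 to 87.5) and 43.0-fold (23.0 to 90.7) higher, and rose by 5.45 ± 0.39 log2 units over all libraries (edgeR, adjusted p = 0.0052), the 1 of 7 tested genes to pass. Of all genes tested 14.5% passed, a share close to 1 of 7. Mmp10, a stromelysin gene, was 5.13-fold (2.93 to 9.52) higher after LPS in titles WT and 1.97-fold (1.20 to 3.38) lower in titles KO, and Mmp3, also a stromelysin gene, was 4.94-fold (2.64 to 9.91) and 3.57-fold (1.54 to 8.97) higher. The log2 ratios of Mmp10 against the untreated library of the other title were 0.54 and 0.75, so its call in titles WT ended and its direction in titles KO turned. That of Mmp3 in the KO-titled LPS library was 0.88, under 2-fold. In titles WT 4 of these 5 were higher after LPS and in titles KO 3 of 5, with 0 lower in either, against 30.4% and 32.4% of all measured genes called in either direction, and their median log2 ratios were 2.13 and 1.01. Against the other title, 2 of 5 were higher for each LPS library. In that setting 3520 and 3678 of the 12326 measured genes were called in either direction, for the WT-titled and KO-titled LPS libraries.

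Of 13 measured genes for the activation, binding and clearance of metalloproteinases, 7 were higher and 1 lower after LPS in titles WT, and 6 higher and 3 lower in titles KO, with median log2 ratios of 1.72 and 0.61. Over all measured genes 30.4% and 32.4% were called. In edgeR's additive model 5 of 13 rose and 0 fell, against 14.5% of all genes that passed. Among them Serpinb2, an inhibitor of plasminogen activators, rose by 7.07 ± 0.99 log2 units (adjusted p = 0.0161). The plasminogen activator gene Plat rose by 4.79 ± 0.97 (adjusted p = 0.0383), from 1 and 8 untreated counts in titles WT and KO. Also among the 5 that rose, named after their values were seen, were Plaur, the urokinase receptor gene, at 3.19 ± 0.22, and Cd44, a hyaluronan receptor gene that can dock MMP9, at 2.25 ± 0.33. Sdc1 (syndecan 1) followed the title pattern of Mmp8, 7.87-fold (7.05 to 8.80) higher untreated and 4.86-fold (4.13 to 5.74) lower after LPS in the library titled KO. Among 10 measured ADAM and ADAMTS proteases, 2 were higher and 1 lower after LPS in titles WT, and 3 higher and 3 lower in titles KO, with medians of 0.66 and 0.43. In titles WT the 3 of 10 called are close to the 30.4% of all measured genes, and in titles KO the background was 32.4%. By edgeR Adamts4, an aggrecanase gene, rose by 5.42 ± 0.58 log2 units (adjusted p = 0.00919) from 3 untreated counts in either title, Adam9 by 1.34 ± 0.29 (adjusted p = 0.044), and Adamts10 changed by −2.42 ± 0.25 (adjusted p = 0.00842).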

How the data were processed

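HISAT2 2.0.5 and mm10 are named by the submitters' processing notes. The table that the authors deposited held, per the file headers, read counts per gene, the authors' FPKM, and the authors' log2 folds, p-values and adjusted p-values for 4 comparisons. No source used here names the counting program, strand setting or test. A further 8 columns with values by sample stayed unused. The 10 genes lay at the same positions in GENCODE M21.

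Counts were scaled by TMM in edgeR 4.0.16 (R 4.3.3). Comparisons of 2 libraries rested on log2 ratios of CPM (prior count 2) and the 2-fold rule given above, with folds printed without the prior. The difference of responses used a delta-method Poisson interval after adding 0.5 to counts. The additive model used filterByExpr and has 1 residual degree of freedom: spread is taken from the departure from additivity. Alternatives were library totals, DESeq2 1.42.0, limma-voom 3.58.1, other filters, prior counts and folds, and FPKM with a pseudocount of 1 or 0.1. Both kinds of test were tested on simulated data. Python 3.11.15 and SciPy 1.17.1 were used. Promoter sequences are RefSeq's (GRCm38.p6). Intervals cover counting error only, and p-values measure only the spread between these libraries, whose independence is not stated.

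Genes, lists and tests were chosen with earlier results of these data known. Named genes were all 10 genes, Fbxw7, Lyz1 and Lyz2, genes overlapping a member, and up to 3 called genes of largest ratio per further list and comparison. The lists were other metalloproteinases and inhibitors, ADAM and ADAMTS proteases, genes of metalloproteinase activation, binding and clearance, extracellular matrix components, and markers of macrophages, neutrophils, monocytes, fibroblasts, osteoclasts, dendritic cells, T cells, B cells, erythroid cells, mast cells and endothelial cells. Some genes of these lists are not reported here.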

Additional observations from a re-analysis of the deposited data

Results flagged for a closer look

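For 4 of the 10 genes the LPS ratio within titles went in opposite directions in the 2 titles, each counting interval excluding no change. The share of all genes that met this rule was not counted, so the 4 cannot be read as particular to the family. A difference of response of at least 2-fold was called for 18.3% of measured genes. The difference of log2 ratios, KO minus WT titles, was −4.42 for Mmp8, −3.56 for Mmp12, −2.18 for Timp2 and 1.35 for Mmp2. Against the untreated library of the other title the opposite directions were not seen for Mmp8 (log2 ratios −0.63 and −0.73 for the WT-titled and KO-titled LPS libraries), Mmp12 (1.10 and 1.18) or Timp2 (0.21 and 0.13), and for Mmp2 they were −0.22 and 0.15, neither a call. With 1 library per group the difference was not tested against replicate spread. The title ratios of Lyz1 were opposite at the 2 treatments as well, at log2 3.48 untreated and −3.61 after LPS.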

How the results depend on the processing

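Genes called after LPS in titles WT numbered 3747, or 2269 in FPKM with a pseudocount of 1 and 1415 at 4-fold, and in titles KO 3992, or 2279 and 1379. The 7 of 9 genes of the family called in titles WT became 4 at 4-fold and 4 against the untreated library of the other title, under which the log2 ratio of Mmp8 in titles WT reversed to −0.63 and that of Mmp12 in titles KO to 1.18. Untreated title calls numbered 639, or 1157 without a filter, 384 at a mean of at least 5 CPM, 229 in FPKM with a pseudocount of 1 and 94 at 4-fold, and family calls were 5, or 3 with library totals and 2 at 4-fold. After LPS title calls numbered 1014, or 549 at 5 CPM, 370 in FPKM and 166 at 4-fold, and family calls were 3, or 1 at 4-fold. Differences of response numbered 2259, or 1424 at 5 CPM and 548 against the untreated library of the other title, a setting chosen for this difference after seeing the data. There 1 of the 7 family calls was counted, Timp1, whose difference reversed to 1.87, as those of Mmp12 (0.089), Mmp13 (0.82) and Mmp14 (0.30) did.

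In the additive model, 2027 genes passed for LPS, or 3797 without a filter, 4059 with library totals, 4485 with treatment alone and 453 at an adjusted p of 0.01, where 1 family gene (Mmp13) in place of 3 passed. Leaving out each library in turn, possible with treatment alone, gave 2573 to 3029 genes and 3 to 4 of the family, Mmp12 passing without the KO-titled untreated library. The additive model has no residual degree of freedom then. For genotype, 0 genes passed, or 2 without a filter. Library totals shifted the median LPS log2 ratio of all genes to −0.62 in titles WT and −0.54 in titles KO, and the share of calls that were higher from 50.7 to 22.2% and from 45.0 to 22.6%. For untreated titles that share went from 60.9 to 48.4%, for the difference of responses from 43.1 to 53.5%, and for the additive LPS effect from 64.5 to 22.6%. The cause of these changes was not tested. Timp3, Mmp2 and untreated Timp1 rest on few counts. No paired analysis was possible because each group holds 1 library, so no replicate number could serve as a block. The additive model already compares LPS with untreated within titles.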

Other observations

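Among matrix components, 9 of 20 genes had a mean of at least 1 CPM. After LPS 6 were higher and 2 lower in titles WT, and 6 higher and 2 lower in titles KO, where 30.4% and 32.4% of all measured genes were called. For each LPS library set against the untreated library of the other title, 4 of 9 were higher and 0 lower, an alternative chosen after seeing the data. Of the 12326 measured genes, 3520 and 3678 were then called in either direction, for the WT-titled and KO-titled LPS libraries. Over all libraries 3 of 12 tested genes rose by edgeR: Vcan, the proteoglycan versican (3.19 ± 0.64 log2 units, adjusted p = 0.0381), Fbn1, fibrillin (3.04 ± 0.49, adjusted p = 0.0225), and Tnc, tenascin C (2.80 ± 0.60, adjusted p = 0.0434). Of all 13989 genes tested, 9.35% rose, and 14.5% passed in either direction. Spp1 (osteopontin), a substrate of several metalloproteinases, gave KO to WT title folds of 3.73 higher (3.67 to 3.78) untreated and 3.78 lower (3.72 to 3.83) after LPS. Thbs1 (thrombospondin), another secreted matrix protein gene, gave folds of 3.61 higher (3.53 to 3.69) and 3.96 lower (3.84 to 4.09). Col4a1, a basement membrane collagen gene, gave a fold of 9.20 higher (3.29 to 35.6) after LPS, on 35 against 4 counts.

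Markers of other cell types were low for dendritic cells (summed level of 5 genes 1.81 to 13.2 CPM, Xcr1 the highest in 3 of 4 libraries), T cells (4 genes, 0.272 to 6.06 CPM), B cells (3 genes, 0.184 to 0.253 CPM), erythroid cells (3 genes, 0.0 to 0.0612 CPM) and mast cells (3 genes, 0.136 to 1.23 CPM). Endothelial markers, of which macrophages can express Pecam1, summed to 62.8 to 100.05 CPM over 3 genes. Kdr among them was 15.2 and 56.3 CPM in the WT-titled and KO-titled untreated libraries and 53.0 and 16.2 CPM after LPS. Pecam1 and Cdh5 differed between titles in the direction opposite to Kdr at each treatment. In the order WT-titled untreated, KO-titled untreated, WT-titled LPS and KO-titled LPS, Pecam1 was 56.7, 41.4, 16.5 and 43.1 CPM. Cdh5 in that order was 4.5, 2.4, 3.1 and 3.6 CPM, on 53 and 59 counts in the LPS libraries.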
